A study of Polistes metricus with 16 samples.

Results

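The transcripts described here are the 60, of 74517 assembled transcripts of the paper wasp Polistes metricus, whose level in the heads of foundress-reared larvae stood farthest above every other larva of the series. For each transcript the gap was the lowest of the 4 foundress-reared larvae minus the highest of the other 12 larvae, on the scale log2(CPM + 0.5). CPM is a transcript's count relative to its library total, on the usual CPM scale, after TMM scaling, which corrects for differences in composition between libraries. The 60 largest gaps were taken among the 29445 transcripts with a mean CPM of at least 0.5. The members were thus chosen by the measured levels of all 16 larvae, so the excess in foundress-reared larvae is a description and was given no test. RNA was sequenced from 16 heads of single female larvae in the last larval instar, the 5th, with 4 larvae in each of 4 groups. Foundress-reared larvae, whose path leads to workers, were collected in late spring of 2010 at a field site in Iowa. Worker-reared larvae, whose path leads to queens, were collected at that site in late summer of 2010. The other 8 larvae came from nests collected in North Carolina in 2009 and held in a laboratory, where restricted nests received an insect every 3 days and ad libitum nests 1 every day. Rearing and season therefore cannot be told apart in the field larvae, and foundress-reared larvae also differ from laboratory larvae in year, place and origin. The labels name no genotype or drug treatment for any group, and they do not say whether larvae of a group were nest mates.

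Polistes colonies are founded in spring by overwintered queens. A foundress forages for and feeds her first brood alone, and most of these daughters become workers. Later brood is fed by those workers, and its females can become the next season's reproductives. The castes look alike and differ mainly in physiology and behaviour. Feeding in larval life is thought to bias the path a larva takes, and nutrient signalling, juvenile hormone and storage proteins of the fat body have been studied in that role. The larval head holds brain, muscle, epidermis, fat body and gland tissue, and in such whole heads fewer cells of a type and less RNA per cell cannot be told apart. Gene names are not attached to the identifiers in the count table. The roles of the members are therefore not given, the labelled tissue was not checked against marker genes, and transcripts are called by their identifiers.

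The list held a few transcripts with a wide gap and many with a narrow one. All 4 foundress-reared larvae lay above all other larvae in 171 transcripts, which is 0.581% of those ranked. The same rule with another group in place of the foundress-reared larvae gave 93 transcripts (0.316%) for worker-reared, 106 (0.36%) for restricted and 28 (0.0951%) for ad libitum larvae. A gap of more than 0.5 on the log2 scale was found for 8 transcripts in foundress-reared larvae, for 1 each in worker-reared and restricted larvae and for 0 in ad libitum larvae. The largest gap was 1.83 for foundress-reared larvae, 0.60 for worker-reared, 0.58 for restricted and 0.16 for ad libitum larvae. The last members inside the list were PmetTSAr1.1-002593, with a gap of 0.084, and PmetTSAr1.1-002687, with 0.082. Just outside it were PmetTSAr1.1-006460, with 0.080, and PmetTSAr1.1-005675, with 0.079, so the list ends within a run of nearly equal values. The identifiers need not be 60 genes, since 3 pairs of members are consecutively numbered and each pair was correlated at 0.95 or more after group means were removed.

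**Figure D1:**
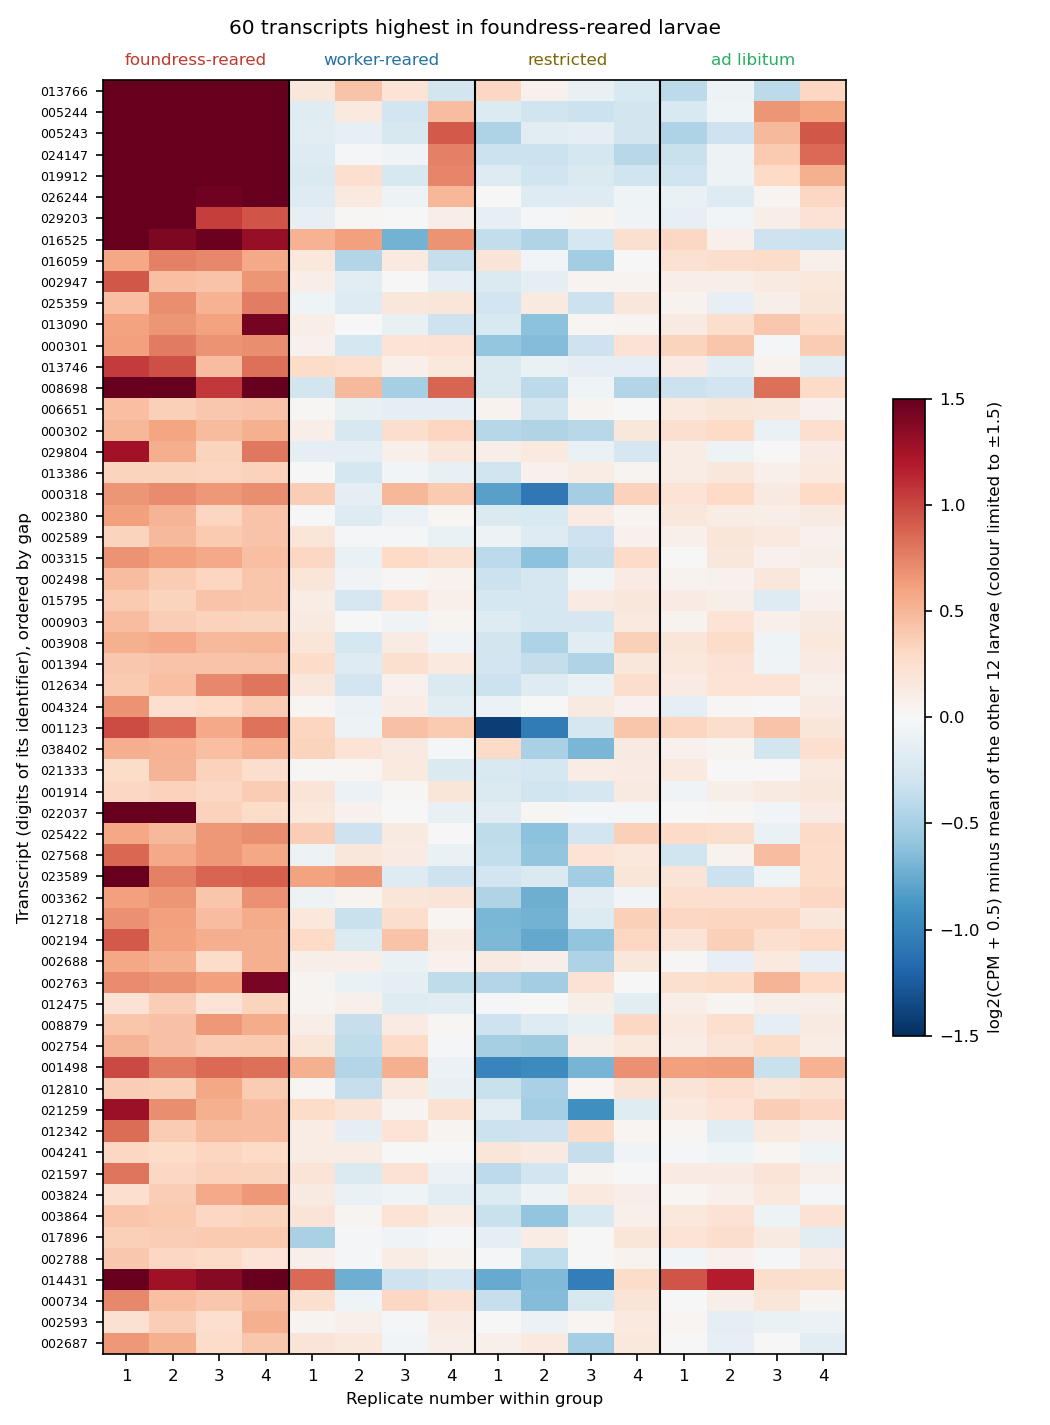
Level of each of the 60 transcripts in each of the 16 larvae, with 1 row per transcript ordered by gap and 1 column per larva. Colour gives log2(CPM + 0.5) minus its mean over the 12 larvae that were not foundress-reared, with the colour range limited at both ends, and the 8 transcripts with a gap above 0.5 stand at the top.

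Library totals ran from 28359372 to 37626473 counts, and the totals of foundress-reared larvae did not stand apart (two-sided exact permutation p = 0.399 over 1820 assignments). The number of transcripts detected, with 1 count or more, was 54890 ± 2086 in foundress-reared larvae (SD, n = 4) and 58560 ± 1498 in the other 12, a difference with an exact permutation p = 0.0022, or 0.0088 after adjustment over 4 library measures. The scaling factor averaged 0.846 ± 0.248 (SD, n = 4) against 1.084 ± 0.190 in the others (exact permutation p = 0.0648, adjusted 0.13). A factor below 1 raises every CPM value of a library. Over all ranked transcripts the median difference between foundress-reared larvae and the others was 0.016 on the log2 scale with scaling and -0.29 without it, a shift of -0.31. How far this shift moves each part of the list is given with the members below. Between replicates of a group the counts differed by far more than sampling noise, with chi-square per degree of freedom from 51.2 to 713.

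The transcript with the widest gap was PmetTSAr1.1-013766. It was measured at 13.2, 6.33, 6.70 and 7.82 CPM in foundress-reared replicates 1 to 4, a mean of 8.52 ± 3.21 (SD, n = 4). The mean was 1.1 ± 0.304 CPM under workers, 0.959 ± 0.241 CPM on the restricted diet and 0.831 ± 0.324 CPM on the ad libitum diet (SD, n = 4 for each). The lowest foundress-reared larva was thus 4.45 times the highest of the other 12. Without scaling of the library totals that ratio was 3.25, and the groups did not overlap. It was the member in which a high level was shared most evenly among the foundress-reared larvae of the 8 with a wide gap.

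Behind it came 6 transcripts that were close to absent outside foundress-reared larvae and varied together among them, namely PmetTSAr1.1-005244, PmetTSAr1.1-005243, PmetTSAr1.1-024147, PmetTSAr1.1-019912, PmetTSAr1.1-026244 and PmetTSAr1.1-029203. Their summed level was 265, 58.3, 11.7 and 24.4 CPM in foundress-reared replicates 1 to 4. In worker-reared larvae it was 0.315, 0.932, 0.376 and 2.75 CPM. Restricted larvae had 0.219, 0.222, 0.297 and 0.181 CPM, and ad libitum larvae 0.132, 0.430, 1.81 and 2.74 CPM. All 4 foundress-reared larvae were above all others, but replicate 1 alone was far above the remaining 3. The sums rest on 7930 counts in foundress-reared, 165 in worker-reared larvae, 30 under restricted and 168 under ad libitum feeding, so the levels outside the first group are near the limit of this depth.

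Single members of these 6 kept nearly fixed proportions. Relative to PmetTSAr1.1-005243, which stood at 64.3, 13.9, 3.04 and 5.28 CPM in foundress-reared replicates 1 to 4, PmetTSAr1.1-005244 ranged only from 0.796 to 1.04 across those larvae. The same ratio ran from 0.883 to 1.22 for PmetTSAr1.1-024147, from 0.631 to 0.828 for PmetTSAr1.1-019912 and from 0.350 to 0.431 for PmetTSAr1.1-026244. It was less steady for PmetTSAr1.1-029203, from 0.103 to 0.236. Over the 16 larvae, with group means removed, every pair of the 6 was correlated at 0.92 or more, a value that the wide spread of foundress-reared larvae dominates. Within the other 12 larvae, at a few counts per library, the pair correlations ran from 0.67 to 0.97. Identifiers 005243 and 005244 are consecutive, and whether these 6 are pieces or isoforms of fewer genes was not tested. The ratio of group means was 112-fold for PmetTSAr1.1-019912 and 117-fold for PmetTSAr1.1-026244, foundress-reared over the other 12. Foundress-reared replicate 1 carried much of these means, and without it the ratios were 40.4 and 39.7.

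The eighth wide gap belonged to PmetTSAr1.1-016525, at 5.74, 1.83, 1.95 and 1.68 CPM in foundress-reared replicates 1 to 4. The other larvae lay between 0.0418 and 0.908 CPM. Its lowest foundress-reared larva was 1.85 times the highest other larva, with replicate 1 again the highest. Foundress-reared replicate 1 held the highest value of all 8 transcripts with a wide gap, and replicate 3 the lowest of 5 of them.

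A further 4 members had a foundress-reared mean at least 5 times that of the others, but a narrow gap, and in each the level was uneven among the 4 larvae. The ratio of 5 was set after the values were seen, and it was reached by 1.38% of all ranked transcripts. PmetTSAr1.1-008698 had the largest ratio of means in the list, 143-fold (102-fold without replicate 1), from 66.7 and 71.8 CPM in replicates 1 and 2 but 0.974 and 3.14 CPM in replicates 3 and 4. PmetTSAr1.1-023589 reached 139 CPM in replicate 1 and 1.35 to 1.55 CPM in the other 3, next to a highest value of 1.22 CPM elsewhere, and its ratio of means was 56.5 with replicate 1 and 2.31 without it. PmetTSAr1.1-022037 had 33.7 and 3.92 CPM in replicates 1 and 2 but 0.266 and 0.227 CPM in replicates 3 and 4, and the last value rests on 5 counts. Its ratio of means was 92.6, and 14.3 without replicate 1. PmetTSAr1.1-014431 had its high value in replicate 4, at 11.9 CPM, against 2.12 to 2.60 CPM in the other 3. In each of these members 1 or 2 larvae carried most of the foundress-reared mean, so the mean does not stand for every larva of the group. With group means removed, PmetTSAr1.1-022037 was correlated at 0.89 or more with each of the 6 over the 16 larvae, but between -0.41 and 0.02 within the other 12. Of the 12 members with a ratio of 5 or more, 10 were highest in foundress-reared replicate 1. Without scaling, all 4 foundress-reared larvae remained above all others in 9 of these 12. When all transcripts were ranked without scaling, 12 had a gap above 0. The rule used these levels, so the count is a description.

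**Figure D2:**
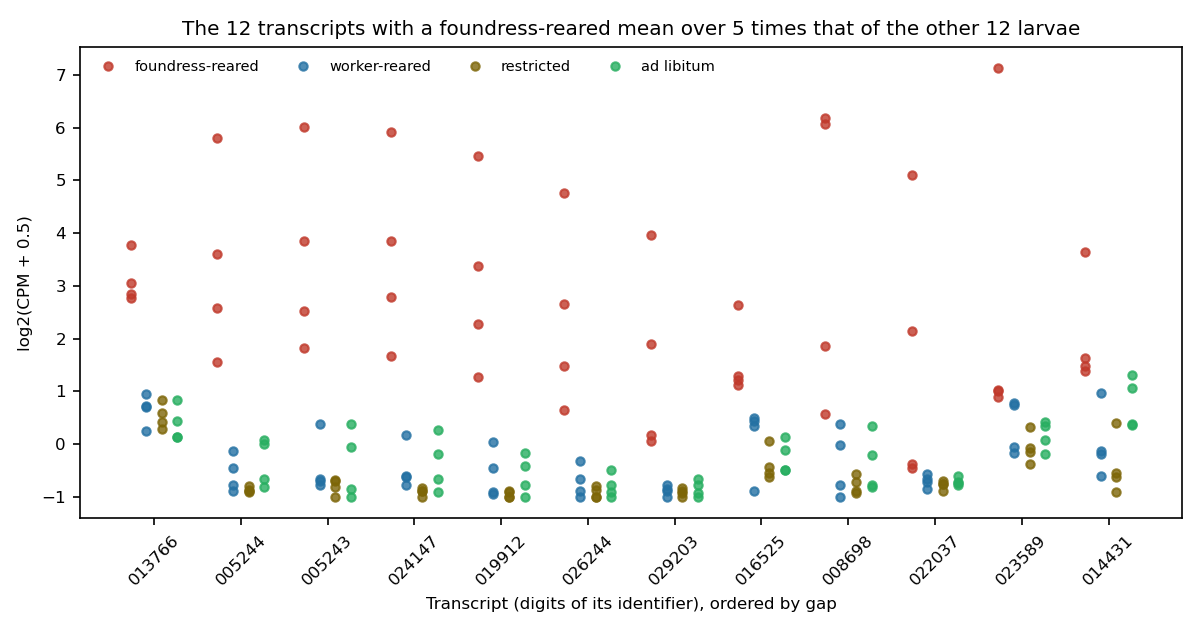
Level of the 12 transcripts with a foundress-reared mean at least 5 times that of the other larvae, on the scale log2(CPM + 0.5), with 1 point per larva coloured by group. PmetTSAr1.1-013766 has 4 foundress-reared points close together, whereas PmetTSAr1.1-023589 has 1 point at 139 CPM and 3 from 1.35 to 1.55 CPM.

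The remaining 48 members differed little in size but were even among replicates. Their foundress-reared mean was 1.22 to 2.13 times the mean of the other 12, with a median of 1.41. The lowest foundress-reared larva was 1.06 to 1.24 times the highest other larva, with a median of 1.09. The coefficient of variation among the foundress-reared larvae was under 10% in 30 of the 48, and its median was 7.65%. Over all ranked transcripts that median was 26%, but these were less abundant, with a median level of 4.54 CPM against 22.3 CPM for the whole list. Over the 10804 transcripts between the lower and upper quartiles of the list's levels, 5.71 and 64.8 CPM, the median coefficient of variation was 18.5%. The largest value among the 48 was 32.6%, and since the rule used these levels the comparison is a description. Median ratios to the single groups were 1.40 over worker-reared, 1.55 over restricted and 1.33 over ad libitum larvae.

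The excess of these 48 depends on the scaling. Without scaling of the totals, all 4 foundress-reared larvae were above all others in 0 of the 48. The median difference was 0.51 on the log2 scale with scaling and 0.14 without it, positive in 41 of 48, beside a median of -0.29 over all ranked transcripts without scaling. The scaling factors, which run from 0.651 to 1.20 among the 4 foundress-reared larvae, move with this result, and their part in it was not tested beyond these values.

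The most abundant members were in this group. PmetTSAr1.1-012634 stood at 694, 722, 875 and 926 CPM in foundress-reared replicates 1 to 4, and the other 12 larvae lay between 423 and 636 CPM, with restricted replicate 4 highest. PmetTSAr1.1-000318 was measured at 530, 546, 526 and 544 CPM, a mean of 536 ± 9.98 (SD, n = 4). Worker-reared replicates 1 to 4 were at 434, 304, 474 and 439 CPM. The restricted larvae were at 190, 159, 235 and 427 CPM, and those fed ad libitum at 388, 411, 368 and 412 CPM. The foundress-reared values of PmetTSAr1.1-000318 are nearly equal, while restricted replicate 4 lies with the other groups and away from the remaining restricted larvae. PmetTSAr1.1-012342 had 604, 441, 469 and 466 CPM in foundress-reared larvae and from 270 to 413 CPM in the others.

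Of the 48, 16 were linked through chains of pairs correlated above 0.9 in their levels less group means, with PmetTSAr1.1-000318, PmetTSAr1.1-000301, PmetTSAr1.1-001394 and PmetTSAr1.1-000302 the most abundant of them. The median correlation over all their pairs was 0.83 across the 16 larvae and 0.85 within the 12 that were not foundress-reared. The lowest was 0.48 and 0.49, respectively. Restricted replicate 4 was above the other restricted larvae in all 16 transcripts, which adds to each of these correlations. Across all 60 members, 45 of 1770 pairs (2.54%) were above 0.9, and only 2 further pairs fell outside this group and the set around PmetTSAr1.1-005243. These pairs were PmetTSAr1.1-002763 with PmetTSAr1.1-013090, and PmetTSAr1.1-002687 with PmetTSAr1.1-002688. The summed level of the 16 was 2265 ± 48.0 CPM in foundress-reared larvae, with a range of 2200 to 2304 (SD, n = 4, as for the other groups). Worker-reared larvae had 1693 ± 246, the restricted group 1253 ± 386 and the ad libitum group 1737 ± 112 CPM. Restricted replicate 4 was at 1816 CPM, level with worker-reared and ad libitum larvae, and the other restricted larvae were far lower. Without scaling the foundress-reared sums were 1488, 1934, 2629 and 1563 CPM, a mean of 1903 ± 521. The corresponding means were 1972 ± 482 for worker-reared larvae, 1358 ± 706 for the restricted group and 1848 ± 522 for the ad libitum group (SD, n = 4 for all). The steady foundress-reared level and its excess are thus seen with scaling only, whereas restricted replicates 1 to 3, at 842 to 1233 CPM, were below the mean of each other group on both scales. Single larvae overlapped without scaling, since ad libitum replicate 3 was then at 1118 CPM.

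**Figure D3:**
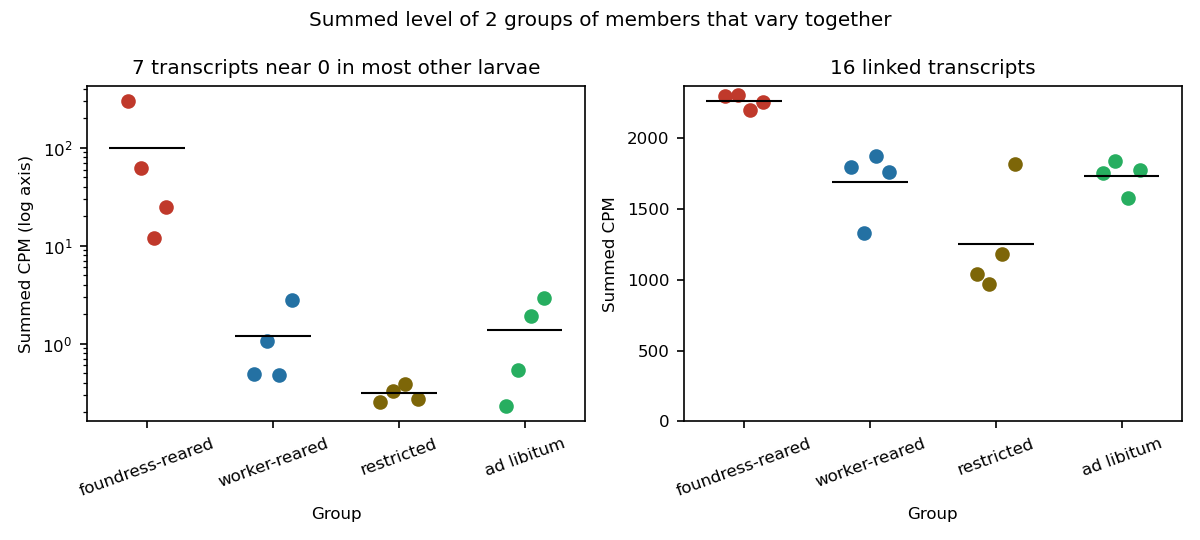
Summed level in CPM of the 7 transcripts linked to PmetTSAr1.1-005243, on a log axis, and of the group of 16 linked transcripts, on a linear axis from 0. Points are larvae and lines are arithmetic group means; foundress-reared larvae span 12.01 to 299 CPM in the first sum and 2200 to 2304 CPM in the second.

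The groups of the other 12 larvae can also be compared in the members. The rule used the highest of these 12 larvae for each transcript but not their groups, so the counts of members below are not fully independent of it. The nutrition comparison, ad libitum over restricted, asks how the members stand to the supply of insects to the nests. Ad libitum larvae were higher in 53 of the 59 members that passed the filter on low counts (89.8%), against 49.95% of all 36337 transcripts tested. The median log2 fold change of the members was 0.29, and -0.0006 over all tested. The filter used all libraries, so some members passed it only through their level in foundress-reared larvae. With only ad libitum and restricted libraries in filter and fit, 45 members were higher in ad libitum larvae, among the fewer that passed. How many members passed, and the share over all transcripts, were not kept for that fit. The count therefore has no background beside it. No member was called at an adjusted p under 0.05 by edgeR's quasi-likelihood test, and the background was 0% higher and 0% lower, that is 0 of 36337 transcripts in either direction. At an unadjusted p under 0.05 the members counted 17 higher and 0 lower (28.8% higher). Over all transcripts tested the shares were 6.02% and 7.6%, which are 2186 and 2763 transcripts. Of the 17, 8 were in the group of 16 linked transcripts and are not separate observations. PmetTSAr1.1-024147, another of the 17, passed the filter only with foundress-reared libraries in it. The count of 17 is therefore a description and not a test against the share over all transcripts. DESeq2 called 484 transcripts and 1 member, PmetTSAr1.1-003362, which was chosen for mention after its values were seen.

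PmetTSAr1.1-003362 was at 15.0, 14.9, 15.0 and 15.5 CPM in ad libitum larvae and 8.99, 7.28, 11.1 and 12.1 CPM in restricted larvae, without overlap. Its log2 fold change was 0.61 with a standard error of 0.147 and an adjusted p of 0.178 by edgeR, the smallest among the members, and DESeq2 gave an adjusted p of 0.0159. The largest log2 fold changes were 3.29 (SE 1.78, adjusted p = 0.423 by edgeR) for PmetTSAr1.1-019912 and 3.21 (SE 1.41, adjusted p = 0.347) for PmetTSAr1.1-024147, both from levels under 1 CPM. Both passed the filter on low counts only with foundress-reared libraries in it. At the other end were -0.18 (SE 0.326, adjusted p = 0.821 by edgeR) for PmetTSAr1.1-013766 and -0.10 (SE 0.10, adjusted p = 0.671) for PmetTSAr1.1-002593. The transcript with the widest gap thus showed a difference between diets smaller than its standard error.

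Restricted replicate 4 decided the number of calls. Of the 16 libraries left out in turn, only this one gave any call, so its omission is read because of its outcome. The calls made without it are a description and not a test of diet. Without it, edgeR called 1650 transcripts higher (4.54%) and 1360 lower (3.74%), and among the members 16 higher (27.1%) and 0 lower. Of these 16, 12 were in the group of 16 linked transcripts. There PmetTSAr1.1-000318 had a log2 fold change of 1.02 (SE 0.166, adjusted p = 0.0048 by edgeR), PmetTSAr1.1-001123 of 1.13 (SE 0.229, adjusted p = 0.0109) and PmetTSAr1.1-000301 of 0.80 (SE 0.153, adjusted p = 0.0087). With all larvae in the fit the same group of 16 was higher in ad libitum larvae in 16 of 16, with a median log2 fold change of 0.41, and 8 had an unadjusted p under 0.05. Restricted replicate 4 was above the other 3 restricted larvae in all 16, and in 34 of the 60 members (56.7%) against 35.4% of all ranked transcripts. All ad libitum larvae were above restricted replicates 1 to 3 in 28 of the 60 members (46.7%) against 13.9%, but above all 4 restricted larvae in 7 (11.7%) against 2.91%, and below all 4 in 0 against 2.66%. Restricted replicate 4 also had the most detected transcripts of its group, 62026 against 57586 to 58253, and its part in the result beyond these counts was not tested.

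Worker-reared larvae were set against the mean of both laboratory groups. They differ in place, year, origin, season and rearing, which cannot be told apart. Among the members 41 of 59 were higher in worker-reared larvae (69.5%), against 47.5% of all transcripts tested, with a median log2 fold change of 0.07 and -0.02 over all. edgeR called 79 transcripts higher (0.217%) and 94 lower (0.259%), none of them a member, and DESeq2 called 779 transcripts and 0 members. At an unadjusted p under 0.05 only PmetTSAr1.1-013746 was past the threshold, chosen for mention for that reason, at a log2 fold change of 0.30 (SE 0.117, adjusted p = 0.314 by edgeR). This is 1.69% of the members higher at that threshold and 0 lower, against 5.99% and 6.64% of all transcripts tested. Its level was 11.3 ± 0.735 CPM under workers, 8.78 ± 0.321 on the restricted diet and 9.54 ± 1.07 on the ad libitum diet (SD, n = 4 for each).

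No extreme of that comparison passed the threshold after adjustment. PmetTSAr1.1-019912 had a log2 fold change of 1.75 (SE 1.23, adjusted p = 0.567 by edgeR) and PmetTSAr1.1-024147 of 1.28 (SE 1.02, adjusted p = 0.622). Both depend on worker-reared replicate 4, without which they were 0.69 and 0.35, and both passed the filter only with foundress-reared libraries in it. In the other direction PmetTSAr1.1-017896 was at -0.24 (SE 0.140, adjusted p = 0.480 by edgeR) and PmetTSAr1.1-002763 at -0.24 (SE 0.181, adjusted p = 0.603). Without restricted replicate 4, edgeR called 763 transcripts and 1 member, PmetTSAr1.1-000318, with a log2 fold change of 0.58 (SE 0.132, adjusted p = 0.0405). No other left-out library gave a member call in this comparison. With only worker-reared and laboratory libraries in filter and fit, 35 members were higher in worker-reared larvae, among the fewer that passed. The number that passed and the share over all transcripts were not kept for that fit either.

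**Figure D4:**
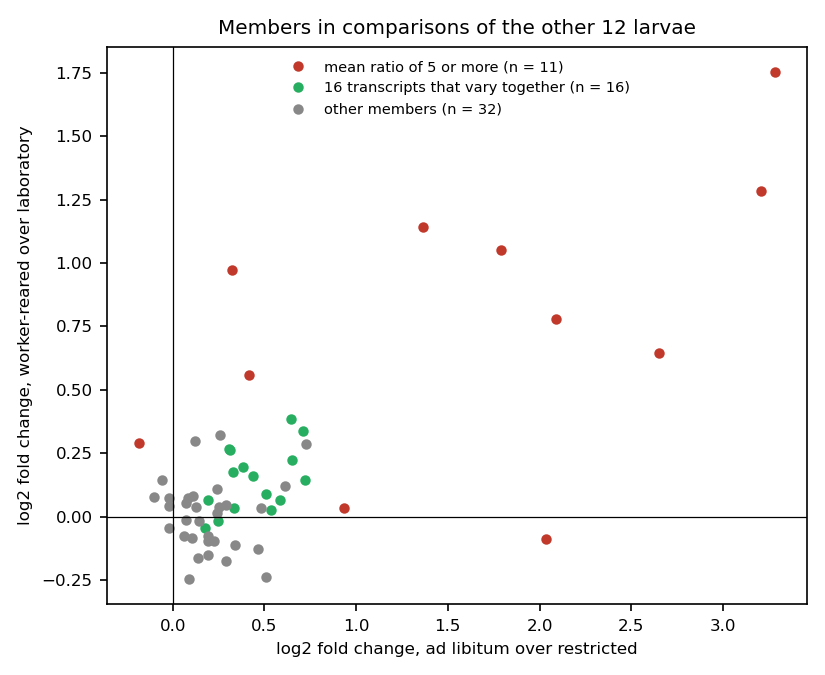
Log2 fold change of each of the 59 tested members between ad libitum and restricted larvae on the horizontal axis, and between worker-reared and laboratory larvae on the vertical axis. Of the 59 points, 53 lie right of 0 and 41 lie above 0, and the widest values belong to PmetTSAr1.1-019912 and PmetTSAr1.1-024147. Both of these transcripts passed the filter on low counts only with foundress-reared libraries in it.

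Below the foundress-reared larvae the groups kept a common order in many members. The second-highest group mean was ad libitum in 38 of the 60, worker-reared in 21 and restricted in 1. Over all ranked transcripts, the highest mean of those 3 groups was ad libitum in 30.5%, worker-reared in 32.6% and restricted in 36.9%. The lowest group mean was restricted in 48 of the 60 (80%), against 37.0% of all ranked transcripts. The single highest larva outside the foundress-reared group was a worker-reared larva in 25 members, an ad libitum larva in 25 and a restricted larva in 10. Over all ranked transcripts the shares were 30.9%, 27.9% and 41.2%. The rule used the value of this larva, which also enters its group mean, and linked members count repeatedly. The counts of group means and of single larvae are therefore descriptions. The neighbouring ad libitum and worker-reared means were not tested against each other.

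To read the excess in larvae left out of the gap, the rule was applied to 15 larvae and the resulting 60 transcripts were read in the one left out. The scaling factors still came from all 16 libraries, so the left-out larva was not fully independent of the choice. Without ad libitum replicate 1, 58 of the 60 members were chosen again in this way, and 50 with factors computed anew. The share over all ranked transcripts is printed beside each reading. It comes from transcripts that were not chosen for a gap in the other 15 larvae, so it is not the share to be expected of chosen transcripts without a group difference, which is higher. Foundress-reared replicate 4 was above all 12 others in 52 of 60 (86.7%, against 8.36% of all ranked transcripts), and replicate 2 in 43 (71.7%, against 7.4%). Replicate 1 was above them in 19 of 60 (31.7%, against 18.4%), and replicate 3 in 20 (33.3%, against 8.28%). The other larvae, each left out in turn, were below all 4 foundress-reared larvae in 37 to 60 of 60. For worker-reared replicates 1 to 4 the numbers were 57, 60, 55 and 57, against 18.4%, 20.7%, 28.6% and 23.2% of all ranked transcripts. For restricted larvae they were 59, 60, 57 and 56, against 28%, 28.7%, 29.9% and 23.8%. Ad libitum larvae gave 60, 56, 37 and 58, against 16.2%, 18.4%, 24.1% and 20.8%, so that replicate 3 overlapped the foundress-reared larvae most. The list itself changed most without foundress-reared replicate 1 or 3, when 18 of the 60 members were chosen again in each case. Without ad libitum replicate 3 the number was 29, and without foundress-reared replicate 2 it was 37. In all, 12 members were chosen in every one of the 16 lists, 7 of them from the 8 with a wide gap. They were joined by PmetTSAr1.1-016059, PmetTSAr1.1-002947, PmetTSAr1.1-025359, PmetTSAr1.1-013746 and PmetTSAr1.1-008698. PmetTSAr1.1-016059 stood at 21.6, 24.4, 23.8 and 21.5 CPM in foundress-reared larvae, and between 9.84 and 17.4 CPM in the others. PmetTSAr1.1-002947 stood at 59.4, 42.5, 41.7 and 49.4 CPM, and between 26.6 and 34.6 CPM in the others.

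**Figure D5:**
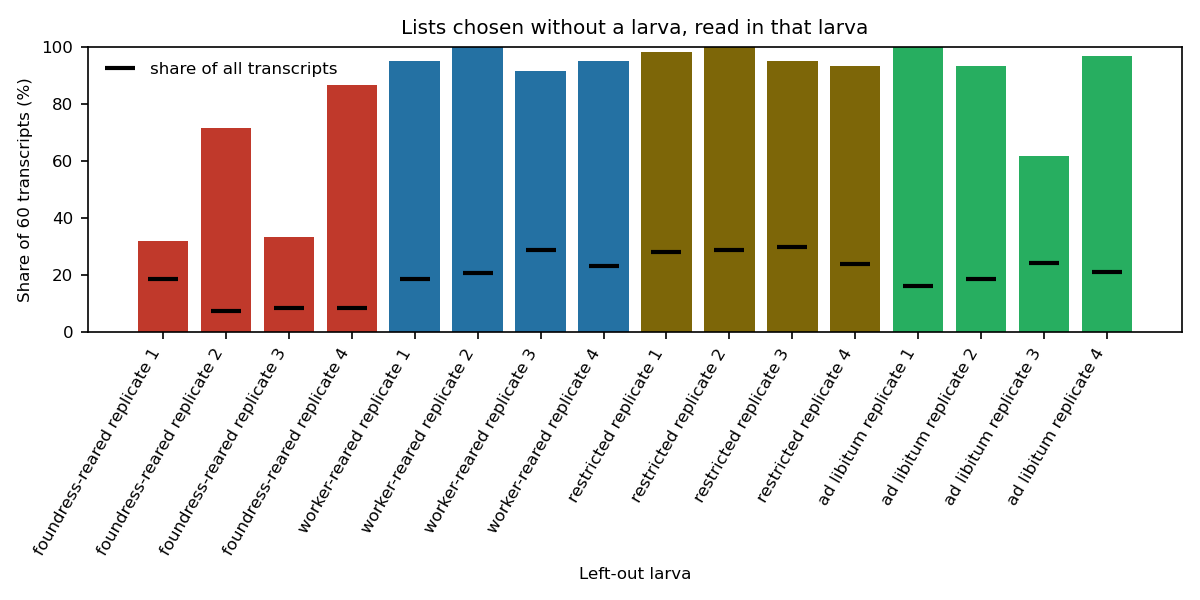
For each of the 16 larvae, the percentage of the 60 transcripts chosen without it that separate it from the opposite set, as a bar, with the percentage of all ranked transcripts as a black line, which comes from transcripts not chosen for a gap. Foundress-reared replicates 1 and 3 reach 31.7% and 33.3%, replicates 2 and 4 reach 71.7% and 86.7%, and the other 12 larvae reach 61.7% to 100%.

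The direct comparison of worker-reared with foundress-reared larvae used the same values as the rule, and nothing is read from it. edgeR called 9 transcripts higher (0.0248%) and 7 lower (0.0193%) in worker-reared larvae, and 2 of those 7, PmetTSAr1.1-013766 and PmetTSAr1.1-005244, are members.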

How the data were processed

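RNA from 16 single larval heads was made into libraries with the TruSeq kit, per the labels' protocols. The deposited values are whole-number counts per assembled transcript, 1 column per larva. The submitters' processing notes name Bowtie2 and eXpress. Not given in the sources used here are their versions, the assembly, strand handling and whether fragments shared by similar transcripts were split, so isoforms and paralogs may share counts. Replicate numbers follow the order of records and pair nothing. Each p-value measures only the spread among the larvae sampled.

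Low counts were removed with filterByExpr (36337 transcripts, 48.8%, with 99.74% of counts). TMM factors came from that table. One model with 4 group means was fitted with edgeR 4.0.16 (robust quasi-likelihood test, Benjamini-Hochberg adjustment, threshold 0.05) in R 4.3.3; DESeq2 1.42.0 was an alternative. Scripts were tested on simulated data. Other scalings, pseudocounts and filters, and leaving out each library, were tried. Members and lists were chosen with earlier results of these data known. Named transcripts are the 8 widest gaps, the 3 most abundant members, the 3 largest ratios, the 2 largest log2 fold changes each way per comparison, called members, and the 2 rows on each side of the list's end. Any other transcript was named after its values were seen. Lists of marker and pathway genes could not be applied to identifiers without names and were not run.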

Additional observations from a re-analysis of the deposited data

Results flagged for a closer look

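A larva far from the other 3 of its group was found in 8 of 88 groups of values examined. The cut-off gives about 1 in 20 for independent, normally distributed values. That rate need not hold here, since the transcripts were named for their values, some vary together and some rest on few counts. No excess is read from the number. In worker-reared replicate 4, PmetTSAr1.1-005243 was at 0.798 CPM against 0.0837 to 0.130 in the other 3 worker-reared larvae, and PmetTSAr1.1-024147 at 0.633 CPM against 0.0859 to 0.155. PmetTSAr1.1-016525 was at 5.74 CPM in foundress-reared replicate 1 against 1.68 to 1.95 in the others of that group, and at 0.0418 CPM in worker-reared replicate 3 against 0.774 to 0.908. PmetTSAr1.1-017896 was at 2.69 CPM in worker-reared replicate 1 against 3.81 to 3.94. PmetTSAr1.1-002763 was at 32.3 CPM in foundress-reared replicate 4 against 18.2 to 19.5. PmetTSAr1.1-002687 was at 17.6 CPM in restricted replicate 3 against 26.6 to 28.1. In restricted replicate 4, 62026 transcripts were detected against 57586 to 58253.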

How the results depend on the processing

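The list depends most on the scaling and on single larvae, and depth limits the transcripts near 0 outside foundress-reared larvae to a few counts per library. Without scaling, 14 of the 60 members were chosen again, 12 transcripts had a gap above 0, and the left-out readings summed to 77 over foundress-reared and 400 over the other larvae, against 134 and 672 with scaling. The other scalings, pseudocounts and filters kept 49 to 59 members, and a pseudocount of 2 left 5 transcripts with a gap above 0.5.

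Leaving out 1 library at a time gave 18 to 60 members chosen again, 173 to 510 transcripts with a gap above 0 and 8 to 16 with a gap above 0.5. In the nutrition comparison it gave 0 to 3010 calls and 0 to 16 members, above 0 only without restricted replicate 4. In the worker-reared over laboratory comparison it gave 76 to 763 calls and 0 to 1 members. In the worker-reared over foundress-reared comparison it gave 1 to 45 calls and 1 to 8 members, with the fewest calls without foundress-reared replicate 2 and the most without replicate 3. Nothing is read from these member counts, since the rule used the same values. The difference in scaling factor ran from -0.356 without foundress-reared replicate 3 (exact permutation, adjusted p = 0.0132) to -0.173, and passed the threshold also without ad libitum replicate 3 (exact permutation, adjusted p = 0.0498). Log2 fold changes of 6 transcripts were recomputed, and each kept its sign in the alternatives where it could be fitted. PmetTSAr1.1-019912 and PmetTSAr1.1-024147 gave no value with only the libraries of a comparison in the fit, since the filter on low counts then removed them. The ratios of means without foundress-reared replicate 1 were added after seeing the data.

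DESeq2 called 484 transcripts and 1 member in the nutrition comparison, and 779 transcripts in the worker-reared over laboratory comparison. In the worker-reared over foundress-reared comparison it called 979 of the 36337 filtered transcripts and 32 of 59 members, all 32 lower in worker-reared larvae. The rule used the values of that comparison, so nothing is read from its member calls. With only the libraries of a comparison in the fit, edgeR called 92 transcripts for worker-reared over laboratory, and 0 transcripts and 0 members for worker-reared over foundress-reared larvae. Without a filter on low counts, 1 member was called in the latter. The cause of these differences was not tested. No paired analysis was possible because the labels give larvae codes whose parts they do not explain, and of the numbers after H or HW in the field codes only 11 occurs in both groups.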
